A study of Homo sapiens with 25 samples.

Results

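LPP, FGGY and AKAP13 are 3 long human genes at which H3K4me1 peaks were more numerous and covered more sequence in HCT116 cells carrying FOXD2 than in control cells. They are 3 of 19974 protein-coding genes on chromosomes 1 to 22 and X. They were chosen for a gain of H3K4me1 in FOXD2 cells, read from the H3K4me1 lists used here. Their H3K4me1 values are therefore a description without a test, while H3K27ac, MLL4, H3K4me3 and the tagged FOXD2 lists took no part in the choice. HCT116 is an established line of colorectal carcinoma cells. FOXD2 cells were stably transduced with a pSin lentiviral vector carrying FOXD2, and control cells with the empty pSin vector, both under puromycin selection. H3K4me1, H3K27ac and MLL4 each had 2 libraries from FOXD2 cells and 2 from control cells, and H3K4me3 had 1 library from each, so that H3K4me3 has no replicate. A further 4 libraries, 2 for FLAG and 2 for 6xHis, came from HCT116 cells given a pcDNA3.1 plasmid for FOXD2 with a 3xFLAG-6xHis tag. Nucleosomes released by MNase from native chromatin served for the histone marks, whereas MLL4 and the tags were precipitated after formaldehyde crosslinking and sonication. Each of these 18 libraries, of 25 in the series, has its own peak list, and 7 input libraries are not used here.

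H3K4me1 is placed on enhancers largely by the methyltransferases MLL3 and MLL4. It marks enhancers whether or not they are active, H3K27ac accompanies it at active ones, and H3K4me3 marks active promoters. FOXD2 is a forkhead transcription factor. LPP encodes a LIM-domain protein of the zyxin family that sits at focal adhesions, FGGY encodes a carbohydrate kinase, and AKAP13 encodes a scaffold for protein kinase A that is also an exchange factor for the GTPase RhoA.

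LPP (gene ID 4026) spans chr3:188153021-188890671 on hg38, 737.7 kb on the plus strand. FGGY (gene ID 55277) spans chr1:59296378-59762730, 466.4 kb, and AKAP13 (gene ID 11214) spans chr15:85380603-85749358, 368.8 kb, both on the plus strand. Peaks were counted in windows reaching 20 kb past each end of the gene, and "inside the gene" covers exons and introns alike, since no exon annotation was used. RefSeq (GRCh38.p14) promoter windows, from 250 bases before to 50 bases after an annotated start, number 7 at LPP, 2 at FGGY and 2 at AKAP13. The first 3 windows below belong to LPP and show promoters of 1 gene that differ in CpG content and in marks, and the other two are the main promoters of FGGY and AKAP13. All 5 are on the plus strand, 5′ to 3′, with each CpG in capitals.
LPP chr3:188153648-188153947: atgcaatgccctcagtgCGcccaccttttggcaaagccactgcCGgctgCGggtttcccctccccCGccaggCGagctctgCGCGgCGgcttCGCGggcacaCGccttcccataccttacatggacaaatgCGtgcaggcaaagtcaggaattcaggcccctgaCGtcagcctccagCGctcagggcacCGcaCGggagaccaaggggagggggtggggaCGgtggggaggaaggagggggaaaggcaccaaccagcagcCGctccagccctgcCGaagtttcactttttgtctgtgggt
LPP chr3:188212462-188212761: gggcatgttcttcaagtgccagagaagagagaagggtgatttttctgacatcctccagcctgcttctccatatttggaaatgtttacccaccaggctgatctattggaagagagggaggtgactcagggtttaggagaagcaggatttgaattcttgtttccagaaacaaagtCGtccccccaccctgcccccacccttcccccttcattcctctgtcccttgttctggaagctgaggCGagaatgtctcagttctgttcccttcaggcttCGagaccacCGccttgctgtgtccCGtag
LPP chr3:188568755-188569054: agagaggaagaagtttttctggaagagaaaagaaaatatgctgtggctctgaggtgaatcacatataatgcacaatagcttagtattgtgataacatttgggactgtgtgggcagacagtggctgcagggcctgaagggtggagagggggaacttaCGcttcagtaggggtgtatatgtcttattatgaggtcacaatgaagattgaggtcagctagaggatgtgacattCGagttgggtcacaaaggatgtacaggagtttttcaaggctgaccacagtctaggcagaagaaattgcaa
FGGY chr1:59296563-59296862: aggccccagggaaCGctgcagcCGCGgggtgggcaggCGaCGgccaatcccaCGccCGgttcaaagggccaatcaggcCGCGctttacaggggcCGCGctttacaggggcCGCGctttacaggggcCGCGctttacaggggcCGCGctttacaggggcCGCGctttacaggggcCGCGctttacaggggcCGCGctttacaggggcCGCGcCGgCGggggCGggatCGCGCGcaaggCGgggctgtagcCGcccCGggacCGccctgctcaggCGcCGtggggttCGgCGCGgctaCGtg
AKAP13 chr15:85380353-85380652: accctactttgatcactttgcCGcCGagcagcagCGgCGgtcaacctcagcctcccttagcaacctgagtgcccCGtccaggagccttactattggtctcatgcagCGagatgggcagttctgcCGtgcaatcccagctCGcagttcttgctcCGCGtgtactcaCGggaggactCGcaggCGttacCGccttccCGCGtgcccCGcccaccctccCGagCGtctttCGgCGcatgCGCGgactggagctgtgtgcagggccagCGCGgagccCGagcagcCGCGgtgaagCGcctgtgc

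The main promoter windows held 19 CpG at LPP, 41 at FGGY and 29 at AKAP13 in 300 bases. The median over 35116 RefSeq promoter windows was 14 (quartiles 4 and 28). The LPP count lay within these quartiles, and the FGGY and AKAP13 counts lay above them. H3K4me3 covered all 300 bases of these 3 windows in both the FOXD2 and the control list. It also covered in full the LPP windows that begin at 188152771 and 188153907, which hold 8 and 36 CpG. Which of these LPP windows is called the main one is thus a choice. H3K27ac covered all of the LPP and FGGY windows in all 4 lists, but at most 3 bases of the AKAP13 window in any list. The LPP window that begins at 188212462, 59.7 kb into the gene, holds 5 CpG and had no H3K4me3 peak in either list. It lay in an H3K4me1 region, chr3:188211332-188213170, that was called in both FOXD2 lists and in no control list. An H3K27ac region of the same kind, chr3:188211658-188212590, overlapped it. The LPP window that begins at 188568755 holds 2 CpG and was covered in full by H3K4me1 in both FOXD2 lists, with no H3K4me1 in the control lists and no H3K27ac or H3K4me3 in any list. The internal AKAP13 start at 85619950, with 3 CpG in its window, had no peak of any mark in any list.

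Both strands of the 11 windows of these genes were searched for a forkhead motif, TGTTTAC, and for the AP-1 motif TGACTCA. The forkhead letters occurred once, in the LPP window that begins at 188212462, and the AP-1 letters occurred in the same window and in the LPP window that begins at 188584088. The 2 matches in the shared window do not overlap. Each is shown with its motif in capitals because it lies in the merged H3K4me1 region called in both FOXD2 lists and in no control list. H3K4me1 covered all 300 bases of this window in FOXD2 replicate 1 and 93 bases in replicate 2. The forkhead motif lay under the peaks of both FOXD2 lists, and the AP-1 motif under that of replicate 1 only.
forkhead match, chr3:188212530-188212559, plus strand: catatttggaaaTGTTTACccaccaggctg
AP-1 match, chr3:188212569-188212598, plus strand: aagagagggaggTGACTCAgggtttaggag
Over all 35116 promoter windows, 3.42% hold the forkhead letters and 4.95% the AP-1 letters. No tag peak of any of the 4 lists lay over this H3K4me1 region. A match of letters is a description of the sequence and not a binding site.

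H3K4me1 peaks numbered 81 and 109 in the FOXD2 lists at LPP, against 39 and 38 in the control lists. At FGGY there were 56 and 71 peaks in FOXD2 cells and 23 and 22 in control cells. At AKAP13 there were 57 and 67 peaks in FOXD2 cells and 28 and 27 in control cells. In all 3 windows both FOXD2 lists were above both control lists, and the second FOXD2 list was the higher one. In bulk chromatin, a region marked in more cells and a region marked more strongly in each cell cannot be told apart.

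At LPP the peaks covered 127 and 153 kb in the FOXD2 lists, against 58.0 and 51.4 kb in the control lists. The means were 139.9 ± 18.7 kb in FOXD2 cells and 54.7 ± 4.69 kb in control cells (SD, n = 2 each), a ratio of 2.56. At FGGY the cover was 76.6 and 111 kb in FOXD2 cells and 30.5 and 29.7 kb in control cells, with means of 93.6 ± 24.0 kb in FOXD2 and 30.1 ± 0.57 kb in control cells (SD, n = 2 each) and a ratio of 3.11. The control lists of FGGY nearly coincided, while its FOXD2 lists had the widest spread of the 3 genes. At AKAP13 the cover was 76.5 and 91.6 kb in FOXD2 cells and 40.9 and 38.0 kb in control cells, with means of 84.03 ± 10.7 kb in FOXD2 and 39.5 ± 2.07 kb in control cells (SD, n = 2 each) and a ratio of 2.13. Over the whole genome, H3K4me1 peaks covered 164 and 177 Mb in the FOXD2 lists and 146 and 121 Mb in the control lists, a ratio of 1.27. Each list was then scaled to the mean genome-wide cover of the 4 lists. The difference became 62.2 kb in place of 85.3 kb at LPP, 48.5 kb in place of 63.5 kb at FGGY and 29.7 kb in place of 44.6 kb at AKAP13. Both FOXD2 lists lay above both control lists at 42.7% of the 17987 genes with H3K4me1 peaks and at 59.6% of the 669 such genes of 300 kb or more, and the 3 genes add nothing to that, since they were chosen on these lists.

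**Figure D1:**
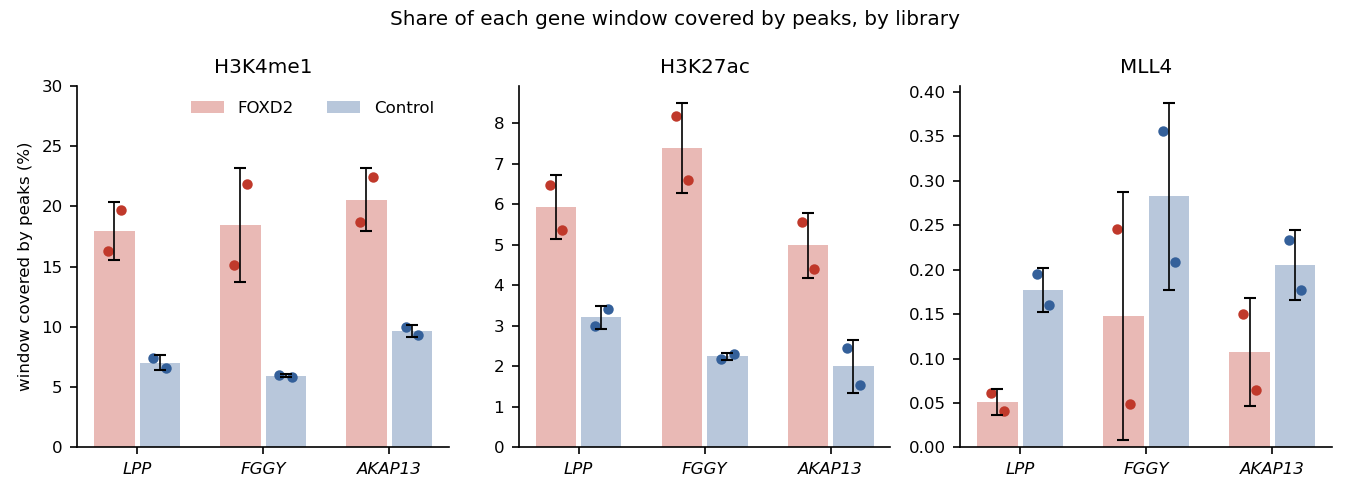
Percent of each gene window covered by peaks of H3K4me1, H3K27ac and MLL4 (y axes differ in scale) at LPP, FGGY and AKAP13. Bars are means of FOXD2 (red) and control (blue) libraries, points are the 2 libraries and error bars are SD. For H3K4me1 the FOXD2 points lie between 15.1% and 22.4%, above the control points at 5.86% to 10.0%.

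Peaks of the 4 H3K4me1 lists were merged into regions, and a region found in both FOXD2 lists but no control list is called FOXD2-only. LPP had 34 FOXD2-only regions among 110, FGGY 28 among 72 and AKAP13 23 among 66. None of the 3 windows held the opposite kind, in both control lists and neither FOXD2 list. Over the genome, 14.2% of 150847 regions were FOXD2-only and 4.39% were of the opposite kind. Nothing is read from the differing shares here because the genes were chosen on these lists. By the count in these windows LPP came first and FGGY came second of all genes. AKAP13 was in place 8, behind DOCK4, JARID2 and PRKCE with 26 each, PTPRG with 25 and RGS6 with 24. GPHN and TPD52-MRPS28 shared its count of 23. JARID2, a subunit of Polycomb repressive complex 2, had more FOXD2-only regions per 100 kb of window (8.23) than LPP (4.37), FGGY (5.53) or AKAP13 (5.63), and PRKCE, a protein kinase C, had 4.51. The JARID2 and PRKCE windows also held no H3K4me1 region of the opposite kind.

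Many other regions rested on one list. A further 41 regions at LPP, 25 at FGGY and 20 at AKAP13 were held by a single FOXD2 list, against 1, 0 and 1 held by a single control list. Over the genome, regions of a single FOXD2 list made up 19.2% and those of a single control list 9.13%. Regions in all 4 lists numbered 27 at LPP, 17 at FGGY and 18 at AKAP13, which is 24.5%, 23.6% and 27.3% of the regions there, against 41.1% over the genome. The choice of genes used these lists, so nothing is read from these shares. The FOXD2-only counts changed with the settings. With the 4 lists reduced to equal length they were 26 at LPP, 17 at FGGY and 11 at AKAP13, and AKAP13 had 13 when peaks needed a −log10 q of at least 5. Without FOXD2 replicate 1 they were 71, 51 and 42, and without FOXD2 replicate 2 they were 45, 35 and 30. A peak in the single remaining FOXD2 list then sufficed, so these counts could not fall below the main ones.

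**Figure D2:**
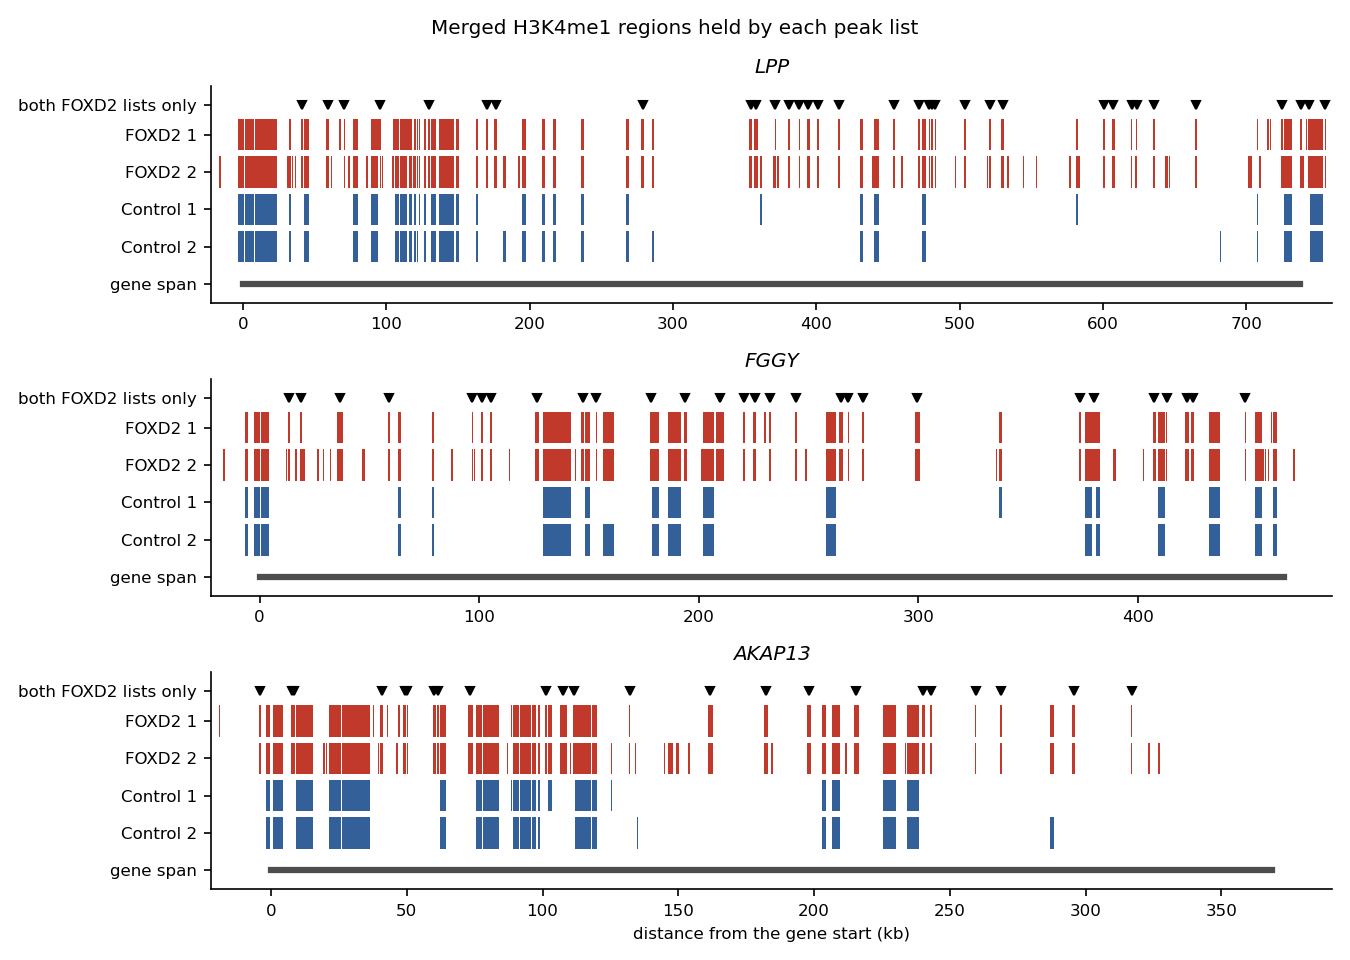
Merged H3K4me1 regions along each gene window, by distance from the gene start in kb, with 1 row for each peak list (FOXD2 red, control blue), narrow regions drawn at a minimum width. Triangles mark the FOXD2-only regions, 34 at LPP, 28 at FGGY and 23 at AKAP13, which are spread over the genes.

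The FOXD2-only regions were spread along the genes. Of the 34 at LPP, 31 lay inside the gene, as did all 28 at FGGY and 22 of 23 at AKAP13. Their median spacing was 11.3 kb at LPP, 11.1 kb at FGGY and 12.9 kb at AKAP13. The largest stretches without one were 100.0 kb, 72.5 kb and 31.2 kb. They were narrow, with median widths of 1081 bp at LPP, 1011 bp at FGGY and 809 bp at AKAP13, against 935 bp for all FOXD2-only regions of the genome. Regions in all 4 lists were wider, at medians of 2845, 3072 and 3597 bp, against 1855 bp for such regions of the genome. Part of this is built in, since a region merged from more lists can only be wider.

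The fold enrichments that follow are the authors' own value for each peak. At LPP the FOXD2-only region with the best ranks by −log10 q was chr3:188546170-188548269, 393 kb into the gene, with fold enrichments of 17.6 and 15.6 in FOXD2 replicates 1 and 2. The next were chr3:188430630-188433045 at 11.01 and 14.5 and chr3:188509234-188512341 at 11.6 in both. The last of these was also the widest at LPP, 3108 bp, and it alone of the 3 held H3K27ac peaks, in both FOXD2 lists but no control list. At FGGY the first was chr1:59331807-59334494, 35.4 kb into the gene, at 10.9 and 11.8, followed by chr1:59594641-59597219 at 10.5 and 14.2 and chr1:59520997-59522573 at 11.98 and 11.97. The first of the FGGY regions held H3K27ac in both FOXD2 lists but no control list, and the second also held it in control replicate 1. At AKAP13 the first was chr15:85595138-85597039, 215 kb into the gene, at 11.4 and 11.6, followed by chr15:85420736-85421915 at 6.69 and 7.53 and chr15:85675632-85676738 at 7.32 and 7.31. A fold enrichment of 10 or more in both FOXD2 lists was reached by 3 regions at LPP, 3 at FGGY and 1 at AKAP13. The median was 5.42, 5.10 and 4.65, taking the highest peak of each FOXD2-only region in each FOXD2 list and pooling both lists. Over all H3K4me1 peaks of the same windows, the medians in FOXD2 replicates 1 and 2 were 5.99 and 5.50 at LPP. They were 5.90 and 5.76 at FGGY and 5.16 and 4.82 at AKAP13.

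The widest FOXD2-only region at FGGY, chr1:59504334-59508085, spanned 3752 bp in FOXD2 replicate 2 but 1641 bp in replicate 1. At AKAP13 the widest was chr15:85486925-85489699, with 2417 and 2312 bp covered in the FOXD2 lists. Both contained H3K27ac peaks in FOXD2 cells, in both lists at FGGY and in replicate 1 at AKAP13, and in no control list.

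The added H3K4me1 cover lay both in FOXD2-only regions and in regions that were wider in FOXD2 cells. FOXD2-only regions carried 41.1% of the difference between FOXD2 and control cells at LPP, 42.7% at FGGY and 43.4% at AKAP13. Widening of regions present in all 4 lists carried 46.9%, 38.9% and 40.1%. Over the genome these shares were 53.2% and 38.8%, where regions of the control lists alone count as negative. The remainder at the 3 genes lay mainly in regions of a single FOXD2 list.

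At LPP the region that widened most lay 8.49 kb into the gene, chr3:188161506-188176947. Peaks covered 15079 and 14260 bp of it in the FOXD2 lists, against 5663 and 4470 bp in the control lists. In FOXD2 cells it formed one nearly continuous block. At FGGY it was chr1:59425627-59438372, 129 kb into the gene, with 11129 and 11860 bp in FOXD2 cells and 4148 and 3880 bp in control cells. At AKAP13 it was chr15:85614666-85619431, 234 kb into the gene, with 3265 and 4619 bp in FOXD2 cells and 442 and 418 bp in control cells. It ends just before the internal AKAP13 start that had no peak of its own. These 3 regions were picked after their values were seen.

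**Figure D3:**
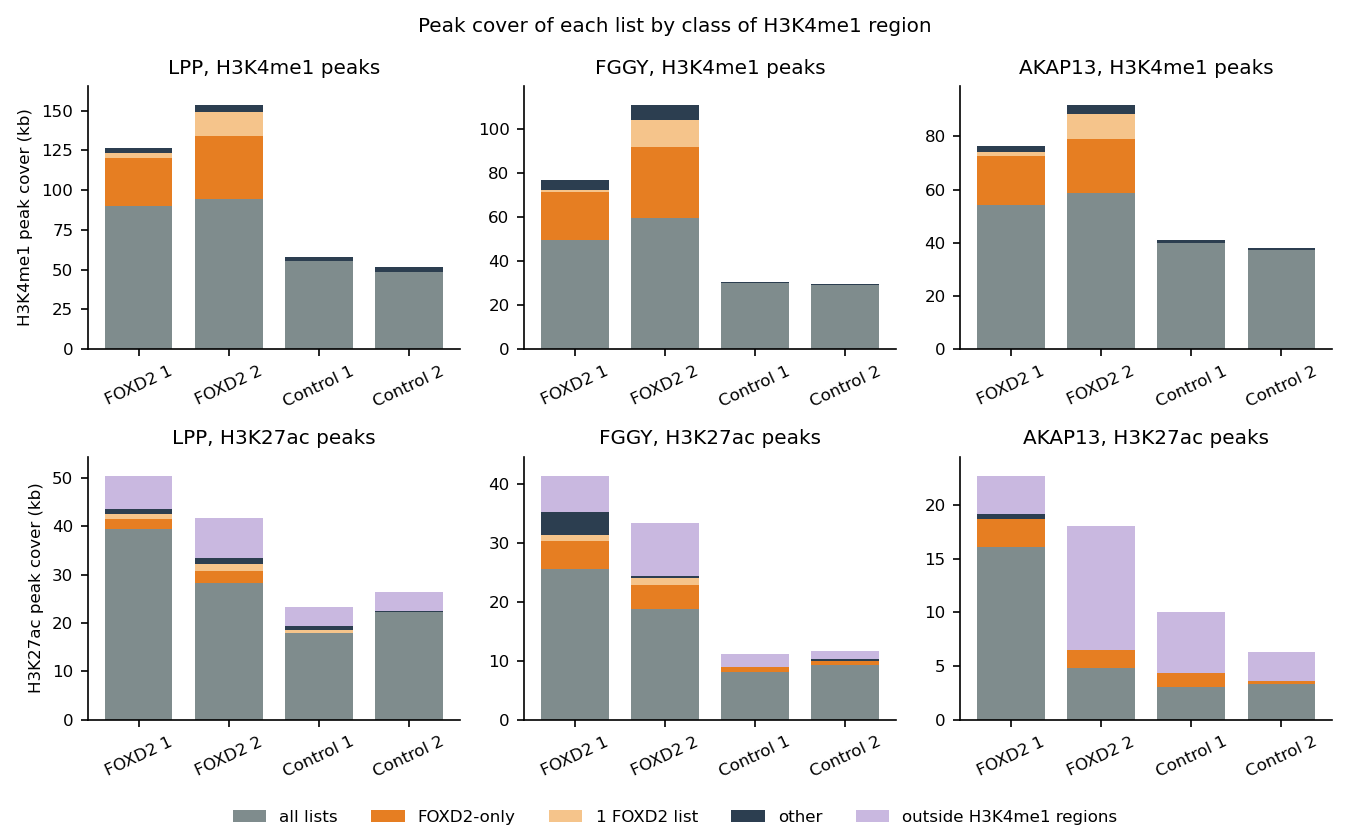
Peak cover in kb of each library (FOXD2 left, control right) at LPP, FGGY and AKAP13, for H3K4me1 (top) and H3K27ac (bottom), split by the class of H3K4me1 region under the peaks. In the H3K4me1 panels the grey part, regions in all 4 lists, is larger in FOXD2 than in control libraries, and the orange part, FOXD2-only regions, is absent from the control libraries.

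The added cover was not even along the genes. Each gene span was divided into 4 equal segments, numbered from the gene start. In segment 1 of LPP H3K4me1 covered 68.2 and 74.2 kb in FOXD2 cells and 34.0 and 30.7 kb in control cells, a ratio of 2.198. In segment 3 it covered 19.0 and 27.5 kb in FOXD2 cells and 3.39 and 3.68 kb in control cells, a ratio of 6.57, and 14 of the FOXD2-only regions lay there. The added length was thus larger at the start of LPP, and the ratio larger in a stretch where control cells had few peaks. FGGY had its most cover in segment 2, with 34.5 and 45.6 kb in FOXD2 cells and 12.4 and 13.1 kb in control cells. Its ratios ran from 2.91 to 4.81 over the 4 segments. AKAP13 had ratios of 1.58, 2.38, 5.27 and 13.1 from its first to its last segment, the last on 2.28 and 4.21 kb in FOXD2 cells against 0 and 0.495 kb in control cells. At AKAP13 control cells had most of their H3K4me1 near the start of the gene.

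**Figure D4:**
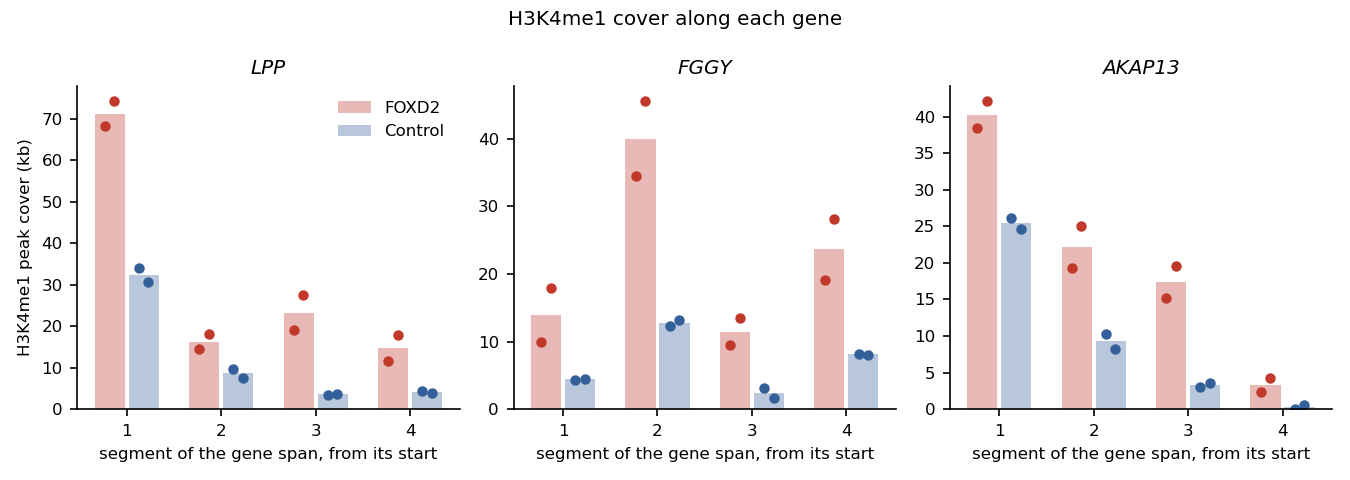
H3K4me1 peak cover in kb in each of 4 equal segments of the LPP, FGGY and AKAP13 spans, counted from the gene start. Bars are means of FOXD2 (red) and control (blue) libraries and points are the 2 libraries. The FOXD2 points lie above the control points in every segment.

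H3K27ac, which the choice of genes did not use, was also more extensive in FOXD2 cells at all 3 genes. At LPP it covered 50.5 and 41.8 kb in FOXD2 cells, against 23.4 and 26.5 kb in control cells, with means of 46.1 ± 6.11 kb in FOXD2 and 24.9 ± 2.196 kb in control cells (SD, n = 2 each) and a ratio of 1.85. At FGGY it covered 41.4 and 33.4 kb in FOXD2 cells, against 11.1 and 11.7 kb in control cells, with means of 37.4 ± 5.605 kb in FOXD2 and 11.4 ± 0.46 kb in control cells (SD, n = 2 each) and a ratio of 3.29. At AKAP13 it covered 22.7 and 18.05 kb in FOXD2 cells, against 10.1 and 6.27 kb in control cells, with means of 20.4 ± 3.3 kb in FOXD2 and 8.16 ± 2.68 kb in control cells (SD, n = 2 each) and a ratio of 2.497. In each gene both FOXD2 lists lay above both control lists. In segment 3 of LPP, where the H3K4me1 ratio was largest in that gene, H3K27ac covered 3.22 and 1.55 kb in FOXD2 cells and 0 kb in both control lists. In segment 2 of FGGY it covered 16.7 and 10.5 kb in FOXD2 cells and 2.06 and 3.44 kb in control cells. The H3K4me1 ratio was largest in segment 3 of FGGY and in segment 4 of AKAP13. At FGGY, H3K27ac covered 5.11 and 4.15 kb of that segment in FOXD2 cells and 0.66 and 0.759 kb in control cells. At AKAP13 it covered 0.985 and 0 kb of that segment in FOXD2 cells and 0.92 and 0 kb in control cells.

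The differences were 21.2 kb at LPP, 26.0 kb at FGGY and 12.2 kb at AKAP13, each larger than the SD between libraries of a group. Each had p = 0.333 in a two-sided exact permutation test, the smallest p that 2 libraries against 2 can give, and 0.4 after Benjamini-Hochberg adjustment over 6 tests. The test therefore cannot pass 0.05. The labels do not say that replicates are separate cultures, so these p-values measure the spread between libraries, which may be technical. FOXD2 lists lay above control lists at 28.3% of the 17643 genes with H3K27ac peaks and at 40.1% of the 623 such genes of 300 kb or more. The genome-wide H3K27ac ratio was 1.28, with 111 and 171 Mb in the FOXD2 lists and 132 and 89.3 Mb in the control lists. The longer FOXD2 list genome-wide, replicate 2, had the smaller cover at all 3 genes. Among the 623 long genes, 32 had a higher H3K27ac ratio than FGGY, 73 a higher one than AKAP13 and 169 a higher one than LPP. Scaled to genome-wide cover, the LPP difference was 14.1 kb with an exact permutation p of 0.667. With windows reaching 50 kb, which take in more of KLHL25 beside AKAP13, the AKAP13 difference was 20.7 kb.

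**Figure D5:**
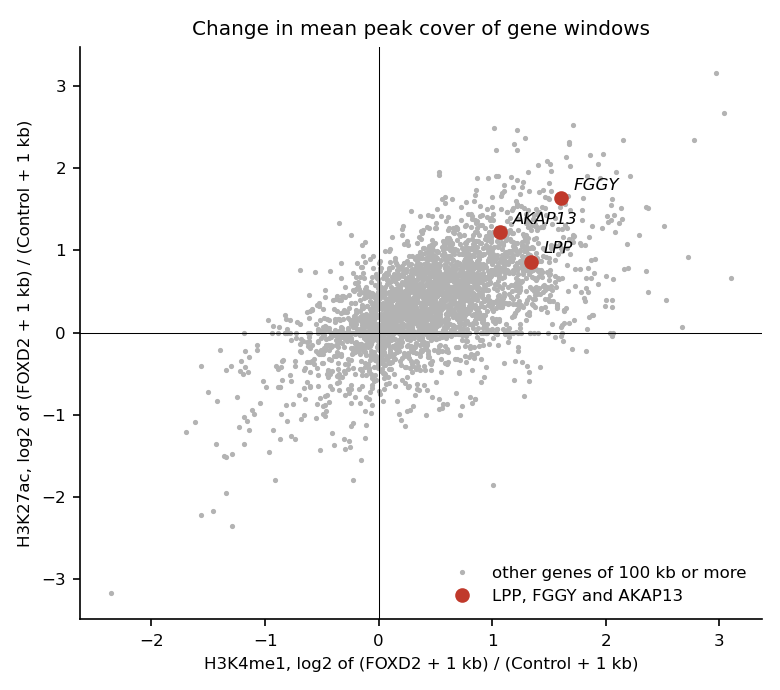
Log2 ratio of mean peak cover in FOXD2 over control cells, after adding 1 kb to each, for H3K4me1 (x axis) and H3K27ac (y axis) in the windows of 3351 genes of 100 kb or more (grey). LPP (1.34 and 0.86), FGGY (1.61 and 1.63) and AKAP13 (1.07 and 1.22) are in red, and the medians of all plotted genes are 0.39 and 0.32.

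At LPP and FGGY the regions with H3K4me1 in all 4 lists carried the largest share of the added H3K27ac, and at AKAP13 the place of the added H3K27ac differed between the FOXD2 libraries. Regions in all 4 H3K4me1 lists carried 65.1% of the H3K27ac difference at LPP, and 48.8% to 75.8% with 1 library left out. At FGGY they carried 51.9%, and 45.8% to 56.3% with 1 library left out. FOXD2-only H3K4me1 regions carried 10.8% at LPP and 14.0% at FGGY, and sequence outside any H3K4me1 region carried 16.9% at LPP and 22.4% at FGGY. Without FOXD2 replicate 1 the share outside was 25.6% at LPP and 33.2% at FGGY, and without FOXD2 replicate 2 it was 11.2% at LPP and 14.5% at FGGY. At AKAP13 H3K27ac in the regions of all 4 lists covered 16.1 and 4.77 kb in FOXD2 cells, against 3.07 and 3.33 kb in control cells. Outside any H3K4me1 region it covered 3.55 and 11.5 kb in FOXD2 cells, against 5.68 and 2.68 kb in control cells. The high value within shared regions thus came from FOXD2 replicate 1 and the high value outside them from FOXD2 replicate 2. H3K27ac of FOXD2 replicate 2 covered 18.05 kb of the AKAP13 window. The 4 segments of the gene span held 6.775, 1.835, 1.111 and 0 kb of it. Much of its cover thus lay in the 20 kb flanks, beyond the gene. KLHL25, which the window partly takes in, had 5717 and 18221 bp in FOXD2 cells over its whole span. In control cells it had 10355 and 4205 bp. Over both FOXD2 libraries the regions of all 4 lists carried 59.3% of the AKAP13 difference and sequence outside carried 27.6%. Without FOXD2 replicate 1 these shares were 16.0% within and 74.5% outside, and without FOXD2 replicate 2 they were 88.8% within and −4.34% outside. FOXD2-only regions carried 11.2% at AKAP13, and 8.13% to 13.4% with 1 library left out.

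Of the 85 FOXD2-only H3K4me1 regions of the 3 genes, 65 (76.5%) had no H3K27ac peak in any list, against 69.9% of the 21471 such regions of the genome. H3K27ac was present in at least 1 FOXD2 list at 20 of them (23.5%, against 27.9% over the genome) and in at least 1 control list at 3 (3.53%, against 11.03% over the genome). FGGY had 9 of the 20, LPP 7 and AKAP13 4. None of the 85 held an MLL4 or an H3K4me3 peak in any list. Such peaks were rare in all FOXD2-only regions of the genome, of which 1.16% held MLL4 in at least 1 FOXD2 list, 0.158% in at least 1 control list and 0.275% held H3K4me3, so that 0 of 85 is near the genome share. Of the 62 regions with H3K4me1 in all 4 lists, 44 (71.0%) held H3K27ac in at least 1 FOXD2 list and 26 (41.9%) in at least 1 control list. Over the 61998 such regions of the genome the shares were 74.7% in FOXD2 and 66.1% in control lists. The share of the 3 genes was thus close to the genome share in FOXD2 lists and below it in control lists, and this difference was not tested. The sets were also unlike, since 17.7% of the 62 regions held H3K4me3 in at least 1 list, against 46.9% over the genome.

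H3K27ac regions in both FOXD2 lists but no control list numbered 6 of 71 at LPP, 10 of 57 at FGGY and 5 of 45 at AKAP13, against 5.25% over the genome. The longest of them was at FGGY, chr1:59432833-59437375, 4543 bp inside the H3K4me1 block that widened most in that gene. LPP also had 1 H3K27ac region of the opposite kind, chr3:188363427-188364064.

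MLL4, the methyltransferase, had few peaks at these genes, and its mean cover was lower in FOXD2 than in control cells. At LPP it covered 0.48 and 0.32 kb in FOXD2 cells and 1.52 and 1.24 kb in control cells, a difference of −0.98 kb. At FGGY it covered 1.25 and 0.25 kb in FOXD2 cells and 1.80 and 1.05 kb in control cells, a difference of −0.68 kb, with groups that overlapped. At AKAP13 it covered 0.61 and 0.26 kb in FOXD2 cells and 0.95 and 0.73 kb in control cells, a difference of −0.40 kb. The groups did not overlap at LPP and AKAP13. Two-sided exact permutation tests gave p = 0.333 at LPP and AKAP13 and p = 0.667 at FGGY, with adjusted values of 0.4 and 0.667. FOXD2 lists lay below control lists at 17.3% of the 14238 genes with MLL4 peaks and at 21.1% of the 565 such genes of 300 kb or more.

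The MLL4 lists of FOXD2 cells were of very unequal length, with 22493 peaks in replicate 1 and 4676 in replicate 2, against 16046 and 13571 in control cells. With all lists reduced to equal length the differences at FGGY and AKAP13 were 0.25 and 0.29 kb, in the opposite direction, and that at LPP was −0.40 kb. Leaving out 1 library at a time, the FGGY difference ran from −1.18 kb without FOXD2 replicate 1 to −0.18 kb without FOXD2 replicate 2, and it was −0.31 kb without control replicate 1 and −1.06 kb without control replicate 2. That at AKAP13 was −0.23 kb without FOXD2 replicate 2. Scaled to genome-wide cover, the differences were −0.59 kb at LPP and −0.13 kb at AKAP13. The FGGY difference was −0.31 kb for peaks with a −log10 q of at least 5, and the AKAP13 difference was −1.16 kb in windows reaching 50 kb. The part of list length in the MLL4 differences was not tested.

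LPP had 2 MLL4 regions in both control lists and neither FOXD2 list, one at its main promoter, chr3:188153293-188154217, and one at chr3:188294826-188295488. AKAP13 had 1, chr15:85459211-85459509, and FGGY none, and over the genome 7.14% of 35854 MLL4 regions were of this kind. AKAP13 also had the single MLL4 region of these genes in all 4 lists, chr15:85494306-85494808. All of these lay in regions with H3K4me1 in every list, a placement for which no genome share is given here.

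H3K4me3 gave few peaks in both groups, 2 at LPP, 2 at FGGY and 1 at AKAP13 in FOXD2 cells and 4, 2 and 3 in control cells. The main promoter peak spanned 2568 bp in FOXD2 and 2654 bp in control cells at LPP. At FGGY it spanned 2083 bp in FOXD2 and 2846 bp in control cells, and at AKAP13 1935 bp in FOXD2 and 1906 bp in control cells. Within LPP, a smaller H3K4me3 peak 142 kb past the start was in both lists, and so was one 131 kb into FGGY. With 1 library from each group there is no replicate check of these counts.

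Tagged FOXD2 was called in few of the FOXD2-only regions, here as over the genome. The 6xHis and FLAG lists gave 28 merged tag regions at LPP, 14 at FGGY and 22 at AKAP13, most of them in a single list (24, 11 and 15). These are 85.7%, 78.6% and 68.2% of them, against 66.2% over the genome. One at FGGY, chr1:59730446-59731509, and one at AKAP13, chr15:85412921-85413853, were in all 4 tag lists, and LPP had none, against 5.90% of 91522 tag regions over the genome. Regions in 3 lists numbered 1 at LPP, 1 at FGGY and 2 at AKAP13, against 8.93% over the genome. Every one of these, in 3 or 4 lists, lay in a region with H3K4me1 in all 4 H3K4me1 lists. The genome share of this placement is not given here, so nothing about these genes is read from it.

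Of the 85 FOXD2-only H3K4me1 regions, 9 (10.6%) held a peak of 1 tag list and none held peaks of 2 or more, against 13.6% and 5.11% over the genome. AKAP13 had 5 of the 9, FGGY 3 and LPP 1. Of the 62 regions with H3K4me1 in all lists, 25 (40.3%) held a peak of at least 1 tag list and 13 (21.0%) of at least 2, against 34.8% and 20.1% of all such regions of the genome. These regions were wider than the FOXD2-only ones, and the part of width in the higher share was not tested. With no tag library from cells without the tag among those analysed here, binding and a background shared by the tag lists cannot be told apart.

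Other genes lie in the same windows. In LPP, the antisense LPP-AS1 was covered by H3K4me1 over 110 and 189 bp in FOXD2 cells and 0 bp in both control lists, and the noncoding LOC124906316 over 5376 and 6207 bp in FOXD2 cells and 2737 and 2749 bp in control cells. The microRNA gene MIR28, within LPP, had no H3K4me1 or H3K27ac peak in any list. In FGGY, the 70-bp gene of the microRNA MIR4711 was covered over 33 and 70 bp by H3K4me1 in FOXD2 cells and 0 bp in control cells. FGGY-DT, which reaches into the FGGY start, had 3690 and 3971 bp in FOXD2 cells and 2619 and 2450 bp in control cells. KLHL25, the protein-coding neighbour that the AKAP13 window partly takes in, had 10040 and 8479 bp in FOXD2 cells and 8252 and 6061 bp in control cells over its whole span.

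Genes with related products were set beside them, from lists of gene families that include the 3 genes themselves. Of 7 zyxin-type LIM proteins, 4 had both FOXD2 lists above both control lists for H3K4me1 and 1 had both below, with LPP, LIMD1, ZYX and WTIP above and FBLIM1 below. LIMD1, a zyxin relative of cell junctions, averaged 38.7 kb in FOXD2 cells and 16.0 kb in control cells. Of 26 focal adhesion genes 11 were above and 4 below (42.3% and 15.4%), close to the 42.7% and 11.2% of all genes. PTK2, the focal adhesion kinase, averaged 92.9 kb in FOXD2 cells and 40.3 kb in control cells and TLN2, a talin, 68.8 kb in FOXD2 and 24.4 kb in control cells, each with 18 FOXD2-only regions. CAV1, which encodes caveolin of membrane invaginations and was picked after its values were seen, averaged 11.5 kb in FOXD2 cells and 26.1 kb in control cells.

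Of 5 carbohydrate kinases of the FGGY family with peaks, 4 were above and none below, with GK5 at 6.98 kb in FOXD2 and 3.86 kb in control cells as the next after FGGY by number of FOXD2-only regions. Of 18 A-kinase anchoring proteins, 9 were above and 3 below. AKAP6 averaged 17.8 kb in FOXD2 cells and 3.49 kb in control cells and AKAP9 9.65 kb in FOXD2 and 3.43 kb in control cells. Of 22 RhoA exchange factors and relatives, 9 were above and 2 below, with ARHGEF3 at 113 kb in FOXD2 and 82.2 kb in control cells. These counts sit beside 42.7% above over all genes and were not tested.

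Genes of 100 kb or more were ranked by likeness to each of the 3, as the Euclidean distance of the percent of window covered over 10 lists of H3K4me1, H3K27ac and H3K4me3. Nearest to LPP among 3351 genes were ATXN10, RBPJ and ETV6, at distances of 3.41, 3.54 and 3.66 percentage points. Nearest to FGGY were NPSR1, ABI1 and LPP itself, at 3.02, 3.66 and 3.85, and nearest to AKAP13 were MAML2, MTMR3 and ARHGAP10, at 2.71, 3.56 and 4.16. NPSR1 had H3K4me1 over 13.9% and 20.9% of its window in FOXD2 cells and 6.401% and 5.92% in control cells, close to FGGY at 15.1% and 21.8% in FOXD2 cells and 6.02% and 5.86% in control cells.

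As a check of the cell type, H3K4me3 peaks were read over the spans of marker genes. In both the FOXD2 and the control list they lay over 7 of 10 intestinal epithelial markers, among them EPCAM, CDH1 and CDX2, and not over KRT20, CDX1 or VIL1. They also lay over 2 of 6 blood and 4 of 7 fibroblast and endothelial markers in each list, and over 3 of 4 neural markers in FOXD2 cells and 4 of 4 in control cells. A peak anywhere in a span counts here, so this reading does not separate cell types. PTPRC, CD3E, CD14, COL3A1, DCN and LUM had none. The FOXD2 and control lists differed in it at 1 neural marker.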

How the data were processed

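Peaks were analysed from 18 libraries of HCT116 cells. The submitters' processing notes name hg38 as the build, and MACS2 2.2.7.1, Bowtie2 2.3.4.1, cutadapt 3.4, bedtools and Picard as tools. The authors deposited a separate narrowPeak file for every library, which shows that calling was done library by library. Its column 7 is the authors' fold enrichment (a ratio). The deposited significance is on a −log10 scale, the p-value in column 8 and the q-value in column 9, with no q above 0.01. The background library of each list and the read depth are not given in the sources used here, so no limit of detection can be stated, and the part of depth in the length of a list was not tested. Fold enrichments describe peaks within a list only.

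Peaks outside chromosomes 1 to 22 and X were left out. Per list, the bases of each gene window (RefSeq span of GRCh38.p14 plus 20 kb on each side) under peaks were summed. Touching or overlapping peaks of a mark were merged over its lists (gap 0 bp), and 1 bp of a peak placed a region in a list. Groups and replicate numbers followed the labels, although the peak names of some lists carry another replicate number. H3K27ac and MLL4 cover was compared by two-sided exact permutation tests with Benjamini-Hochberg adjustment over 6 tests, and nothing was tested for H3K4me1. A gene counted as above or below where the lists of the 2 groups did not overlap. The genes and lists were chosen with earlier results of these data known. Named were the 3 genes, JARID2 and PRKCE for comparison, genes overlapping the windows, the 3 most alike genes, up to 4 members of each gene list and the widest and best-ranked regions. Other genes in a list's count or in the order of counts were named with them. Alternatives were windows of 0 and 50 kb, equal list lengths, a minimum −log10 q of 5, a merging gap of 500 bp, an overlap of 50%, scaling to genome-wide cover, each library left out and a replicate block. Class and cover steps were tested on simulated lists. Python 3.11.15, numpy 2.4.6, pandas 2.3.3, scipy 1.17.1 and matplotlib 3.10.9 were used.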

Additional observations from a re-analysis of the deposited data

How the results depend on the processing

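Of 129 values under other settings, 118 were counted as the same, 9 as moved and 2 as changed in sign. For H3K4me1 cover the limit was the SD between libraries, and for region counts a fixed factor. For H3K27ac and MLL4 cover only a change of sign counted, whatever the size of the shift. The 118 include the replicate blocks and the 50% overlap planned at first, whose values could not differ from the main ones. Scaled to genome-wide cover, the H3K4me1 difference was 62.2 kb at LPP and 29.7 kb at AKAP13. At equal list lengths the AKAP13 difference was 36.4 kb, the FOXD2-only regions numbered 17 at FGGY and 11 at AKAP13, and the MLL4 differences of FGGY and AKAP13 became 0.25 and 0.29 kb. At a −log10 q of 5 or more AKAP13 had 13 FOXD2-only regions. The cause of these shifts was not tested. With 1 library left out, the FOXD2-only regions numbered 36 to 71 at LPP, 29 to 51 at FGGY and 24 to 42 at AKAP13, the highest without FOXD2 replicate 1. The rule was looser there, since it asked about 1 list fewer. These counts could therefore not fall below the main ones and are no check of stability. With 50% of a region covered as the rule, chosen after seeing the data, the FOXD2-only regions numbered 42, 29 and 28. The overlap of 50% planned at first equals the main rule by construction. H3K27ac cover, not computed for the 50% rule or the merging gap, was higher in FOXD2 cells at all 3 genes under each other setting run, by 14.1 to 25.5 kb at LPP, 19.9 to 29.99 kb at FGGY and 9.88 to 20.7 kb at AKAP13. With the replicate number as a block, the H3K27ac differences remain 21.2, 26.0 and 12.2 kb and the exact sign-flip p is 0.5, the smallest that 2 pairs allow. The labels do not pair the libraries, and deviations of same-numbered lists correlated over 3351 genes at −0.14 for H3K4me1, −0.93 for H3K27ac and 0.28 for MLL4. Pairing with crossed numbers, added after seeing the data, also gave an exact sign-flip p of 0.5 for H3K27ac at all 3 genes. No call was possible there. Read depth is unknown and limits every count of absent peaks.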
